A study of Mus musculus with 2931 samples.

Results

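The genes described here are the chains of collagens, laminins and integrins, with the linker proteins of the basement membrane. They were chosen by symbol: Col, a number, a and a number for collagens, Lama, Lamb or Lamc and a digit for laminins, Itga or Itgb for integrins, and Nid1, Nid2 and Hspg2 by name. The rule found 89 of the 18072 genes in the table, namely 44 collagens, 11 laminins, 31 symbols starting with Itg and 3 linkers. Of the Itg symbols, 4 (Itgb1bp1, Itgb1bp2, Itgb3bp and Itgbl1) name proteins that are no integrin subunits. The rule itself uses no measured value, but it was set with earlier results of these data known.

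The study profiled endothelial cells (EC) sorted from the distal lung of mice, with 1 plate well and 1 sequencing library per cell, of which 2694 came from the CD31 gate, 224 from a mesenchymal and 13 from a CD45 gate. The 2931 cells came from 10 mice, 1 female and 1 male in each of 5 groups: embryos shortly before birth (E18.5), postnatal days 1, 7 and 21 (P1, P7, P21) in normal air, and day 7 after hyperoxia, which is breathing of oxygen-rich gas. Strain, genotype, oxygen level and length of exposure are not given in the sources used here, and a mouse name could mean 1 animal or pooled animals. The authors gave each cell 1 of 10 subtype labels, which describe its vessel type, and the comparisons ask how these genes differ between the labels, over age and after hyperoxia.

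Collagen IV, laminin, nidogen and perlecan form the basement membrane, the sheet that endothelial cells secrete and rest on. A laminin is a trimer of an alpha, a beta and a gamma chain, a collagen IV molecule is a trimer of alpha chains, nidogens join both networks, and perlecan carries heparan sulfate chains. Integrins are pairs of an alpha and a beta subunit in the cell membrane that bind this matrix. The alveolar capillaries share their basement membrane with the epithelium, which makes these genes of interest in the growing lung.

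Values are CPM, a gene's share of all reads in the summed cells of a mouse and class, multiplied by 1000000. Each group has 2 mice, so p-values measure the spread between single mice of each sex. Tests between groups used edgeR's quasi-likelihood test of these sums over all genes, with Benjamini-Hochberg adjustment. Called means an adjusted p under 0.05. A class needed at least 8 cells from both mice of a group. How the labels were made is not given, and they may rest on the expression of these same cells, so differences between labels are a description without a test. Labels also hold different ages, so their means mix label and age. Means of labels are from mice in normal air. Comparisons of classes within a mouse also include the hyperoxia mice.

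Mice gave 212 to 359 cells and 56564316 to 331392982 reads, the fewest reads in the male P7 mouse. At an equal depth of 50000 reads, Pecam1 had a read in 83.8% or more of the cells of every label, Car4 in 98.2% of Car4+ capillaries, Prox1 in 93.9% of lymphatic EC and Mki67 in 92.1% of proliferative EC. The 10 mesenchymal markers summed to 0 to 1905 CPM over 47 sums of a mouse and class, with a median of 27.3 CPM, and 6 sums lay above 100 CPM. The highest was that of the 9 proliferative cells of the male P1 mouse, where Mfap4 alone gave 1851 CPM and Dcn, Acta2 and Notch3 were at 0. Sequencing runs differed between groups, and the values within a run are given beside the results they touch.

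The genes of the collagen IV chains most used by these cells, Col4a1 (chr8:11198423-11312826, minus strand) and Col4a2 (chr8:11312805-11449287, plus strand), lie head to head in the mouse genome (GENCODE M21, GRCm38). Their RefSeq starts on GRCm38.p6 overlap by 22 bases, at chr8:11312805-11312826. The overlap is printed here on the plus strand because the CPM ratio of both chains lay between 0.5 and 2 in most sums. Below it stand the bases upstream of the earliest annotated start of Lamb1 (chr12:31265043-31265233, plus strand) and of Itga1 (chr13:115101965-115102214, minus strand), the laminin chain and the collagen receptor whose values over age are described further on. Capitals mark the GC box letters GGGCGG and the CCAAT box, on either strand.
Col4a1 and Col4a2 start overlap: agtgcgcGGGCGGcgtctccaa
Lamb1 upstream: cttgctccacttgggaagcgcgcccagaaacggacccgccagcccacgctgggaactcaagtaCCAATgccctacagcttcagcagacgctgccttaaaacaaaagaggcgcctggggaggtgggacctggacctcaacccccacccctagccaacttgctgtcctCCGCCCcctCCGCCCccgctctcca
Itga1 upstream: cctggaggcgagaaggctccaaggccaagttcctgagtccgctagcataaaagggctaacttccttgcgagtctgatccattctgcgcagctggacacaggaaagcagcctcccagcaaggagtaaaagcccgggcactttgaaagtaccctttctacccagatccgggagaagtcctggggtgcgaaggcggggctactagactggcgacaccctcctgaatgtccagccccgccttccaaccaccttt
Both strands were searched for the GC box letters given above, for the CCAAT box as spelled, and for a TATA box spelled TATAAA. No match of one overlapped another in these stretches. The GC box stood once in the overlap and 2 times upstream of Lamb1, the CCAAT box once upstream of Lamb1, and none of the 3 motifs in the Itga1 stretch. Of all 32851 RefSeq promoter windows of 300 bases, 35.7% held a GC box, 37.4% a CCAAT box and 13.6% a TATA box. Windows matched 64 of the 89 genes by symbol, and 36 of them held a GC box, 19 a CCAAT box and 5 a TATA box. A gene was counted if any of its windows held the motif, so these counts are not comparable with the shares of single windows.

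Over the 9 labels with at least 8 cells from a mouse in normal air, 37 of the 89 genes reached a mean of 20 CPM in at least 1 label and 52 stayed below it in all. Divided by exon length, Itgb1 (the beta subunit shared by the collagen, laminin and fibronectin receptors), Col4a1 and Col4a2 were the 3 highest members in embryonic EC, both Car4- labels, Car4+ capillaries, proliferative EC and the first arterial label. In Car4+ capillaries Col4a2 stood at 193 ± 76.1, Col4a1 at 167 ± 57.8 and Itgb1 at 164 ± 36.2 CPM per kb (SD, n = 6 mice). In embryonic EC Col4a1 stood at 211 ± 73.5 and Col4a2 at 171 ± 53.1 CPM per kb (SD, n = 2 mice). In venous EC the 3 highest were Itgb1 (199 ± 73.1 CPM per kb, SD, n = 7 mice), Col4a2 and Itga5, and in lymphatic EC Itgb1 (138 ± 45, n = 3 mice), Col18a1 and Lama4. In the 9 cells of the second arterial label they were Col5a2, Itgb1 and Lamb2. The map of levels over labels shows these 3 genes as the brightest rows through the capillary labels.

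**Figure D1:**
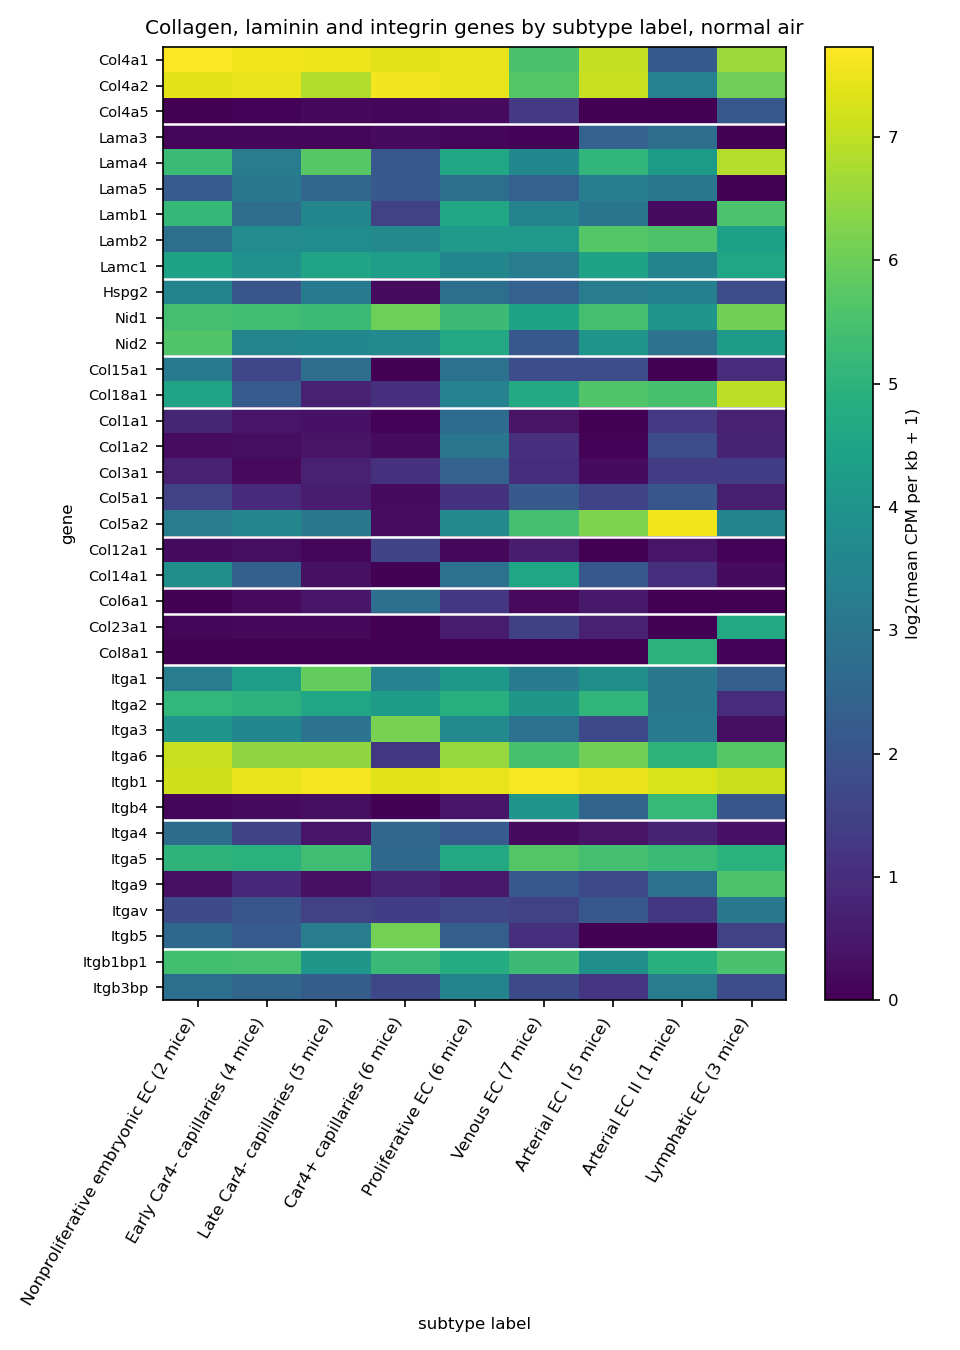
Rows are the 37 collagen, laminin and integrin genes with a mean of at least 20 CPM in a label, grouped by role, and columns are subtype labels of mice in normal air. Color is log2 of the mean CPM per kb of exon plus 1, and Itgb1 is bright in every column while Col4a1 and Col4a2 dim in venous EC and in the second arterial label.

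Col4a1 and Col4a2 were lower in veins than in capillaries. Venous EC held 294 ± 197 CPM of Col4a1 and 324 ± 113 CPM of Col4a2 (SD, n = 7 mice), against 1104 ± 383 and 1247 ± 491 CPM in Car4+ capillaries (n = 6 mice). Within a mouse, hyperoxia mice included, Col4a1 was lower in venous EC than in Car4- capillaries in 8 of 8, with a median log2 difference of -2.07. Col4a2 was likewise lower in 8 of 8 mice, at -1.84. Without the female E18.5 mouse, whose Car4- sum held 13 cells, the differences of Col4a1 ran from -2.31 to -0.98 over 7 mice. The second arterial label had 42 cells, of which only the male P1 mouse gave at least 8, and its 9 cells held 60.7 CPM of Col4a2. Col4a3, Col4a4 and Col4a6, chains of other basement membranes, stayed under 20 CPM in every label, and Col4a5 reached 21.8 ± 18 CPM in lymphatic EC and 9.32 ± 8.17 CPM in venous EC, against 0.429 ± 0.853 CPM in Car4+ capillaries.

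The ratio between both chains lay between 0.5 and 2 in most sums. It was taken from CPM, without division by length. Over 46 sums of a mouse and class the ratio of Col4a1 to Col4a2 had a median of 1.08, and 43 of the 46 lay between 0.5 and 2. The lowest ratios were 0.352 and 0.438 in the 11 venous cells of each E18.5 mouse, and the highest was 2.10 in the lymphatic cells of the female P1 mouse. The 13 Car4- cells of the female E18.5 mouse stood apart at 4.74 and are left out of these counts and of the tests. Across single Car4- cells of a postnatal mouse, the Spearman correlation of both chains ran from 0.068 (P21 male) to 0.60 (hyperoxia male). Over the Car4- sums of these mice their ratio ran from 0.943 to 1.71. That of Itga6 to Itgb1 ran from 0.361 to 0.788 and that of Lamb1 to Lamc1 from 0.0682 to 0.962.

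**Figure D2:**
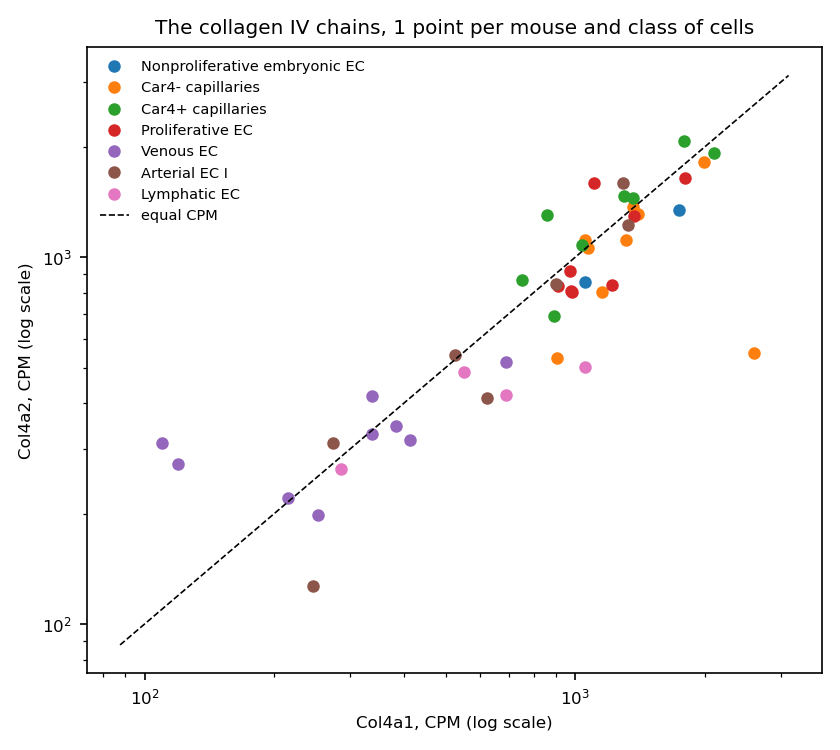
Each point is 1 mouse and class, with the CPM of Col4a1 on the horizontal and of Col4a2 on the vertical log axis, and the dashed line marks equal CPM. Most points follow the line from venous EC at the lower left to capillaries at the upper right, and 1 Car4- sum of 13 cells from E18.5 lies far below it.

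Among the laminin alpha chains, Lama4, the chain of laminin that endothelium lays down along its whole tree, was highest in lymphatic EC. Lymphatic EC held 699 ± 373 CPM (SD, n = 3 mice) against 227 ± 58.8 CPM in embryonic EC (n = 2 mice) and 51.1 ± 18.9 CPM in early Car4- capillaries (n = 4 mice). Lama5, the alpha chain that joins later in capillaries and arteries, was nearly absent there, with 0.300 ± 0.471 CPM in lymphatic EC and 87.5 ± 17.6 CPM in early Car4- capillaries. Within mice both differences held in 3 of 3, namely the P1 female, the P1 male and the hyperoxia female. The median log2 difference between lymphatic EC and Car4- capillaries was 3.82 for Lama4 and -5.73 for Lama5. Late Car4- capillaries averaged 315 ± 638 CPM of Lama4 over 5 mice, a mean set by 12 cells of the female E18.5 mouse, since the lowest mouse had 20.9 and the highest 1457 CPM.

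The beta chains differed between labels, which hold different ages. Lamb2 was highest in the first arterial label, at 282 ± 248 CPM (SD, n = 5 mice), and its paralog Lamb1 in lymphatic EC, at 267 ± 91.3 CPM (n = 3 mice). Embryonic EC held 202 ± 86.5 CPM of Lamb1 and 33.9 ± 18.4 CPM of Lamb2 (n = 2 mice). The lymphatic mice were the E18.5 male and the female and male of P1, with 251.5, 365 and 184 CPM of Lamb1. Proliferative EC held 251 and 213 CPM of Lamb1 in the E18.5 mice and 179.5 and 117 CPM in the P1 mice. Lamc1, the gamma chain that both trimers share, ranged less, from 66.6 ± 45.1 CPM in venous EC to 174 ± 76 CPM in lymphatic EC. Lamb3, a beta chain of epithelia, stayed under 20 CPM in every label, and the alpha chain Lama3 averaged 47.5 ± 52.1 CPM in the first arterial label.

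Of the linkers, Nid1 was read in every label, with 96.2 CPM in the 9 cells of the second arterial label, 131 ± 78.9 CPM in venous EC and 411 ± 109.7 CPM in lymphatic EC. Its paralog Nid2 was highest in embryonic EC at 238 ± 107 CPM, and Hspg2, which encodes perlecan, likewise at 144 ± 57.8 CPM (SD, n = 2 mice). Col18a1, a collagen of the endothelial surface of the basement membrane whose end fragment is endostatin, was highest in lymphatic EC at 835 ± 172 CPM. Venous EC held 172 ± 129.8 CPM of Col18a1 and late Car4- capillaries 4.29 ± 5.21 CPM. Its paralog Col15a1 stood at 49.6 ± 19.8 CPM in embryonic EC and 0.108 ± 0.227 CPM in Car4+ capillaries.

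Col5a2 was highest in arterial labels and Col14a1 in veins. Col5a2, a chain of the thin fibrils of collagen V, stood at 495 ± 481 CPM in the first arterial label and 278 ± 143 CPM in venous EC, against 1.31 ± 1.93 CPM in Car4+ capillaries. Col14a1, which coats collagen fibrils, was highest in venous EC at 148 ± 78 CPM, and was above Car4- capillaries in 8 of 8 mice (median log2 difference 3.96). Col23a1, a transmembrane collagen, was highest in lymphatic EC at 139 ± 50.9 CPM and had under 10 CPM in each capillary label. Col1a1, Col1a2 and Col3a1, the major fibril chains of fibroblasts, averaged over 20 CPM in proliferative EC alone. There the male P1 mouse had 157 CPM of Col1a1 with 98.5% of its reads in 1 cell, and the female P1 mouse had 0.169 CPM. The male P7 mouse had 100.4 CPM of Col3a1, the highest of the proliferative sums, with 94.4% of its reads in 1 cell, 76.8 CPM of Col1a2 and 32.2 CPM of Col1a1. The mesenchymal markers summed to 1905 CPM in the P1 male, 412 CPM in the P7 male and 34.6 CPM in the P1 female; their part in the result was not tested.

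Integrin alpha subunits differed between labels. Itga6, a laminin receptor subunit, stood at 582 ± 184 CPM in embryonic EC and at 6.11 ± 7.91 CPM in Car4+ capillaries. Itga9, the receptor subunit of lymphatic valves, reached 335 ± 89.7 CPM in lymphatic EC, which held only 7.04 ± 10.7 CPM of the collagen receptor subunit Itga2. Itgb4, which pairs with Itga6 alone, had 97.6 ± 76.9 CPM in venous EC and was above Car4- capillaries in 8 of 8 mice, at a median log2 difference of 5.94. Itga5, the fibronectin receptor subunit, was highest in venous EC at 216 ± 123 CPM. None of the 8 leukocyte integrin genes reached a mean of 20 CPM in a label. In venous EC Itgb2 had 25.3 and 20.5 CPM in the female and male E18.5 mice and 20.5 and 5.90 CPM at P1. It had 0 CPM in the P7 mice and the P21 female.

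Car4+ and Car4- capillaries, the larger and the smaller cells that line alveoli, carried different integrins. Itga3, a laminin receptor subunit, had a median of 314 CPM in Car4+ and 68.4 CPM in Car4- capillaries of the same 8 mice, hyperoxia mice included. It was higher in Car4+ cells in 8 of 8 (log2 difference 1.10 to 3.17). Itgb5, a partner of the RGD receptor subunit Itgav, had medians of 203 and 12.8 CPM and was likewise higher in 8 of 8. Itga6 ran the other way, with medians of 7.17 CPM in Car4+ and 375 CPM in Car4- capillaries, lower in Car4+ cells in 8 of 8 mice (log2 difference -7.90 to -2.10). Itga1, Itga5, Col5a2, Hspg2 and Lamb1 were also lower in Car4+ cells in 8 of 8 mice. Nid1 and Itga4 were higher in 8 of 8, by a median log2 difference of 0.66 and 1.54. Itgb1 and Col4a1 did not divide the classes, at -0.21 and -0.03.

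**Figure D3:**
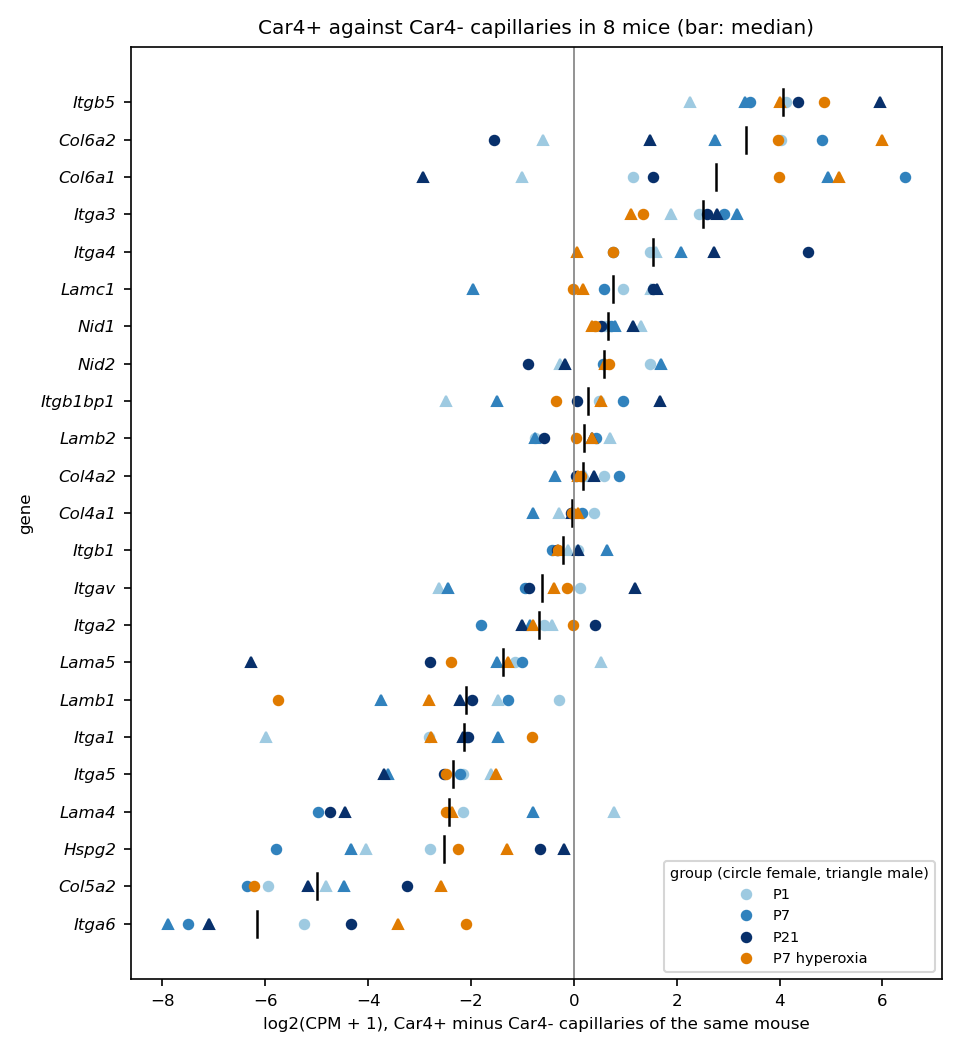
Each row is 1 of the 23 genes with a median of at least 20 CPM in either class, and each point is the log2(CPM + 1) of Car4+ minus that of Car4- capillaries in 1 of 8 mice, with a bar at the median. Itgb5 and Itga3 lie to the right of 0 in all 8 mice and Itga6 and Col5a2 to the left.

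The collagen VI chains were read in a minority of Car4+ cells, mostly in the mice of P7. Col6a1 had 85.8 and 56.2 CPM in the female and male P7 mice and 149 and 131 CPM after hyperoxia, against 2.37 and 0 CPM at P1 and 4.36 and 0 CPM at P21. At P7 these reads came from 5 of 42 cells in the female and 7 of 24 in the male mouse. Col6a2 had 30.2 and 37.8 CPM at P7, and Col6a3, the third chain of the usual trimer, had 0 and 0 CPM. In Car4+ capillaries edgeR called neither Col6a1 nor Col6a2 between ages. Some of the Car4+ cells of the P7 female came from the mesenchymal gate. The mesenchymal markers summed to 1.72 to 311 CPM over the Car4+ sums, with a median of 13.6 CPM. Col6a1 and Col6a2 also had 25.4 and 64.6 CPM in the 9 proliferative cells of the male P1 mouse. The part of other cells in these values was not tested.

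The first step in age compared embryonic EC of E18.5 with Car4- capillaries of P1, which differ in label as well as in age. Lamb1 had 264 CPM in the female and 141 CPM in the male mouse before birth (E18.5), and 37.9 CPM in the female and 43.1 CPM in the male at P1. Lama4 stood at 269 and 186 CPM in the E18.5 mice and at 72.6 and 42.4 CPM in the P1 mice. Both genes were lower in the 2 mice of P1 than in those of E18.5, and neither passed the test (log2 2.21 ± 0.53 SE, edgeR adjusted p = 0.108 and log2 1.92 ± 0.47 SE, edgeR adjusted p = 0.13). Col18a1 was also lower at P1, with 181 and 115 CPM before and 38.8 and 38.1 CPM after birth.

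Lama5, Lamb2 and Itga1 ran the other way. Lama5 had 50.6 and 35.7 CPM in the E18.5 mice and 96.6 and 76.5 CPM in the P1 mice, Lamb2 46.9 and 21 CPM and 77.3 and 84.6 CPM, and Itga1, a collagen IV receptor subunit, 119.7 and 69.2 CPM and 212 and 190 CPM. Of 74 members tested, 0 were called by edgeR, where 0.494% of all genes were, and 11 had an unadjusted p under 0.05 (9.42% of all genes). With DESeq2, 5 were called (Col6a1, Lamb1, Lama4, Nid2 and Col4a4), and limma called 0. The members' median change was -0.06 on the log2 scale beside -0.02 over all genes. In the females, whose cells shared a run, Lamb1 had 264 and 38.7 CPM.

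Between P1 and P7, Car4- capillaries showed no change in these genes that passed the test. Lamc1 had 89.5 and 48.1 CPM at P1 and 140.1 and 209 CPM at P7, with 40.5% of the male P7 reads in 1 cell. Col5a2 and Itgav were also higher at P7 in both mice, Itgav not at 50000 reads per cell (log2 -0.049). Itga2 had 353 and 210.3 CPM at P1 and 158 and 157 CPM at P7, and Itga6 494 and 444 CPM and 353 and 238 CPM. Among 72 members, edgeR called 0 (0% of all genes) and 8 had an unadjusted p under 0.05, against 11.3% of all genes. The calls of DESeq2 were 2, Itgb2 and Col13a1, each under 6 CPM in the Car4- cells of every mouse, and limma 0. The median was -0.67 over the members and -0.04 over all genes. The CD31-gate cells of P1 and P7 mice of 1 sex shared no run. Only 5 Car4- cells of the P7 male, from other gates, came from the run of the P1 male, too few for a value within a run.

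From P7 to P21, Nid2 fell and Itga1 rose in Car4- capillaries. Nid2 (chr14:19751265-19811787, plus strand) had 50.9 CPM in the female and 20.1 CPM in the male mouse at P7, and 1.05 CPM in the female and 1.41 CPM in the male at P21. Reads of Nid2 were found in 39 of 206 and 29 of 116 cells at P7 and in 4 of 272 and 4 of 268 cells at P21. The groups did not overlap, and the change was log2 -4.73 ± 0.68 SE, edgeR adjusted p = 0.0245. Itga1 (chr13:114953096-115101964, minus strand) had 199 and 236 CPM in the P7 female and male and 1178 and 878 CPM at P21, log2 2.35 ± 0.40 SE, edgeR adjusted p = 0.0421. At P21 a read of Itga1 stood in 258 of 272 and 226 of 268 cells, which is 89.6% of the cells of both mice. At P1 it stood in 87.5% of Car4- cells, so the share of cells was similar at P1 and P21. These shares were taken at unequal depth, and the share at P7 is not given here. Per kb of exon, Itga1 stood at 18.9 ± 2.27 and Itga2 at 30.3 ± 14.2 CPM per kb in early Car4- cells (SD, n = 4 mice), and at 58.3 ± 38.8 and 22.4 ± 15.9 in late ones (n = 5 mice).

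The nidogen paralog Nid1 had 303 and 153 CPM at P7 and 175 and 156 CPM at P21, values that overlap. Hspg2 had 54.8 and 29.6 CPM at P7 and 10.2 and 1.18 CPM at P21, and Lamc1 140.1 and 209 CPM and 40.0 and 52 CPM, without overlap and without a call (edgeR adjusted p = 0.243 and 0.129). Lamb1 had 43.8 and 14.3 CPM at P7 and 3.99 and 4.02 CPM at P21. So 2 of 72 members were called, against 0.266% of all genes, and 15 had an unadjusted p under 0.05, against 10.5%. By DESeq2 the calls were 9 (Itgb2, Col18a1, Lamb1, Col5a3, Itgb4, Nid2, Lamc1, Hspg2 and Itga1) and limma on mean CPM Nid2 alone. The members' median was 0.06 beside 0.06 over all genes.

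The calls depended on single mice. Leaving out the P7 female took both away (edgeR adjusted p = 0.145 for Nid2 and 0.382 for Itga1), as did leaving out the P21 male (0.127 and 0.142) or the P21 female (0.0733 and 0.0876). Leaving out the P7 male took away Itga1 (0.326), as did CD31-gate cells alone (log2 2.17, edgeR adjusted p = 0.0574) and limma (adjusted p = 0.061). Both genes kept their direction in each case. In the males, whose CD31-gate cells shared a run, Nid2 had 25.7 CPM at P7 and 0.990 CPM at P21, and Itga1 279 and 825 CPM. Hspg2 had 36.9 and 0.193 CPM in that pair, and Lamc1 74.8 and 66.4 CPM, so the distance in Lamc1 was small within the run.

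A joint test over P1, P7 and P21 called the same 2 genes of 72, Nid2 (edgeR adjusted p = 0.0113) and Itga1 (0.0164), against 0.348% of all genes. At an unadjusted p under 0.05 stood 16 members and 14% of all genes. The same 2 genes were called by limma, and DESeq2 called 11 members. Without the P21 male edgeR called 0 members and without the P21 female 1, while without the P1 female it called 4. In the females of P1 and P21, whose CD31-gate cells shared a run, Nid2 had 52.6 and 1.28 CPM and Itga1 216 and 1176 CPM. Lamb1 had 38.7 and 4.88 CPM in the same pair. The early label held 160 and 120 Car4- cells of the P1 female and male and 162 and 114 at P7, and the late label 268 and 265 at P21, so age and label went largely together. The late label also held 44 cells of the P7 female, and within it Nid2 had 41.7 CPM in that mouse and 1.07 and 1.43 CPM at P21. Itga1 had 314 CPM there and 1189 and 883 CPM at P21. In the 21 late cells of the P1 female Nid2 had 0 CPM and Itga1 134 CPM.

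**Figure D4:**
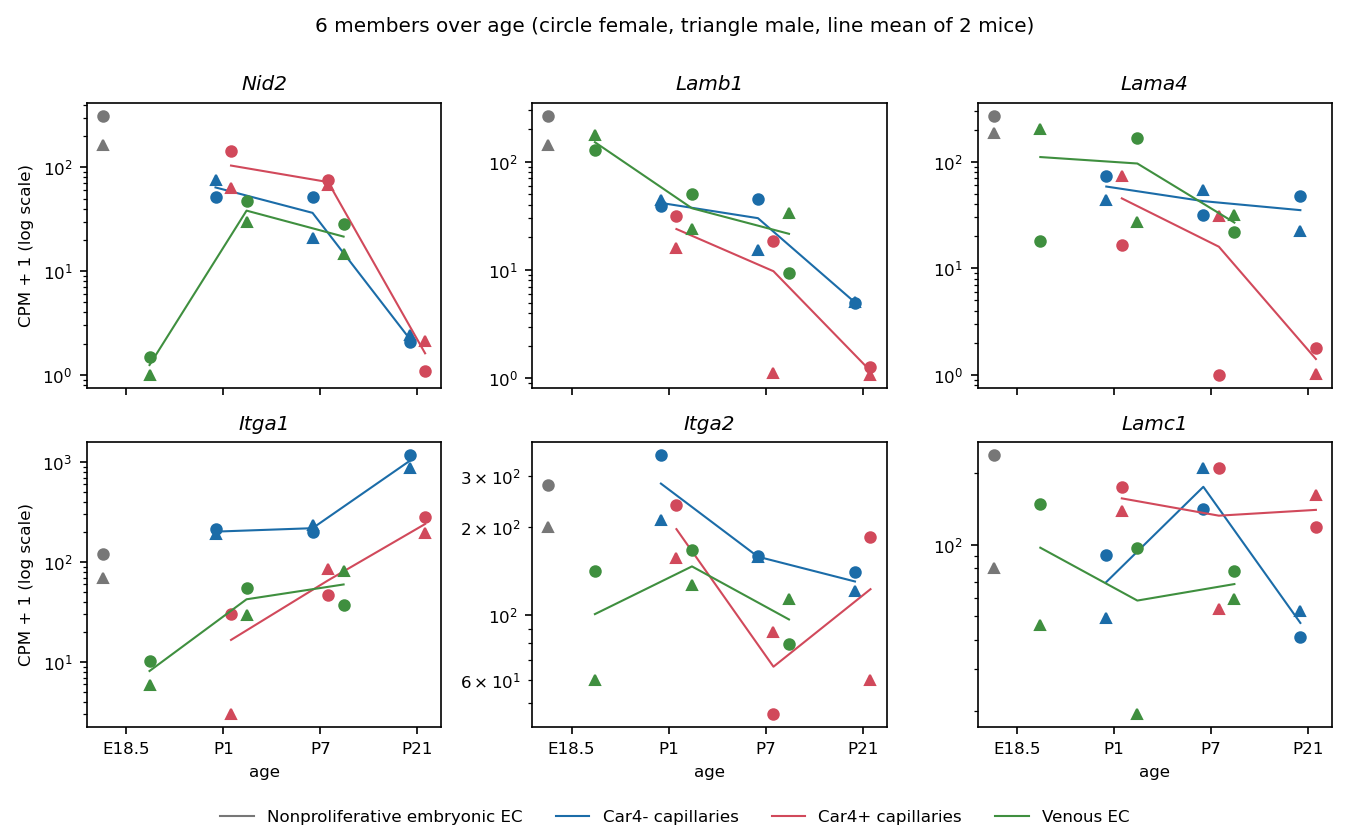
CPM plus 1 on a log axis over age for 6 genes, with circles for female and triangles for male mice and lines through the means of 2 mice of a class. Nid2 lies lowest at P21 in both capillary classes and Lamb1 in Car4- capillaries, and Itga1 is highest at P21.

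In Car4+ capillaries Nid2 was also lower and Itga1 also higher at P21 than at P7 in both mice, with no member called. Nid2 had 144 and 62 CPM at P1, 75.4 and 67.1 CPM at P7 and 0.0996 and 1.13 CPM at P21 in the female and the male. Itga1 had 29.3 and 2.01 CPM, 45.5 and 83.9 CPM and 283 and 197 CPM at the same ages. The changes from P7 to P21 did not pass the test (Nid2 log2 -6.85 ± 1.29 SE, edgeR adjusted p = 0.394, and Itga1 log2 1.74 ± 0.97 SE, edgeR adjusted p = 0.858). Itgb5 was higher at P21 than at P7 in both mice (207 and 149.7 CPM, then 312 and 429 CPM), and Lama5 and Itgb1 were lower. In the males, within a run, Nid2 had 116 CPM at P7 and 2.45 CPM at P21.

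From P7 to P21 edgeR called 0 of 51 members in Car4+ capillaries (0.00814% of all genes) and 4 had an unadjusted p under 0.05 (5.24%). Nid2 was called without the P21 male (edgeR adjusted p = 0.0106), without a filter on low counts (0.000132), at 50000 reads per cell (0.0441) and by DESeq2, which called 2 members, the other being Col3a1; limma called 0. Without the P21 female edgeR called 1 member, which was not Nid2. From P1 to P7, Itga1 was higher in both mice, and Itga4, a fibronectin receptor subunit, had 82 and 83.8 CPM at P1 and 24.4 and 25.1 CPM at P7. Itga2 had 237 and 156 CPM and 44.8 and 86.4 CPM, and Lama5 was also lower at P7. There edgeR called 0 of 51 (0% of all genes), with 4 at an unadjusted p under 0.05 (6.28%). The DESeq2 fit called 1 (Lama2) and limma 0, and edgeR called 1 without the P21 male.

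In proliferative EC, Lamb1 was lower at P7 than before birth, without a call. Lamb1 stood at 251 and 213 CPM before birth (E18.5), 179.5 and 117 CPM at P1 and 15.5 and 47 CPM at P7 in the female and male, and the P7 mice lay below the E18.5 mice (log2 -2.96 ± 0.61 SE, edgeR adjusted p = 0.272). Col18a1 stood at 158 and 139 CPM in E18.5 mice and 9.44 and 9.16 CPM at P7, and Col14a1 55 and 103 CPM and 4.32 and 25.2 CPM. Itga1 had 132 and 101 CPM and 218 and 289 CPM, and Itgav and Col5a2 were also higher at P7 in both mice. Of 56 members edgeR called 0 (0.0458% of all genes) and 8 had an unadjusted p under 0.05 (5.25%). With DESeq2 Lamb1 alone was called and with limma 0, while Lamb1 and 1 other member were called without either P1 mouse (edgeR adjusted p for Lamb1 = 0.0118 without the female and 0.0104 without the male). In the males, within a run, Lamb1 went from 217 CPM in the E18.5 mouse to 42 CPM in the P7 mouse.

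Venous EC, with 11 cells from each E18.5 mouse and 21 and 23 at P7, gave the same order for Lamb1. The 11-cell sums held 126 and 173 CPM and the P7 sums 8.29 and 32.8 CPM (log2 -3.10 ± 0.86 SE, edgeR adjusted p = 0.288), and the 13 cells of the female P21 mouse held 0.0711 CPM. Itga1 had 9.36 and 4.91 CPM at E18.5, 36.6 and 81 CPM at P7 and 404 CPM in that P21 female. Itga6 and Itgav were lower at P7 than at E18.5 in both mice, and Itga3 and Col14a1 were higher. Among 45 members edgeR called 0 (0.0325% of all genes), with 9 at an unadjusted p under 0.05 (11.2%). By DESeq2 the calls were 5 (Itgb2, Lamb1, Nid2, Itga9 and Itga1) and limma 0, and without the E18.5 female edgeR called 5, among them Lamb1 (adjusted p = 0.0279), and without the E18.5 male 1.

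After hyperoxia, Lamb1 stood higher than in normal air in 3 of the 4 classes compared, and no member was called. In Car4- capillaries it had 43.8 CPM in the female and 14.3 CPM in the male in normal air, and 135 CPM in the female and 151 CPM in the male after hyperoxia (log2 2.26 ± 0.55 SE, edgeR adjusted p = 0.574). A read of Lamb1 stood in 32 of 206 and 23 of 116 cells in normal air and in 79 of 153 and 49 of 132 after hyperoxia, and the cell with the most reads held 27.1% and 23.5% of them in normal air and 6.79% and 8.20% after hyperoxia. Proliferative EC had 15.5 and 47 CPM in normal air and 67.5 and 104 CPM after hyperoxia, and venous EC 8.29 and 32.8 CPM and 156 and 89.2 CPM. In both classes the mice did not overlap, with a change of 1.48 ± 0.58 SE and 2.61 ± 0.84 SE on the log2 scale and an edgeR adjusted p of 1. Car4+ capillaries overlapped, with 17.3 and 0.129 CPM and 1.50 and 20.4 CPM. In the males, whose cells shared a run, Lamb1 had 18.2 CPM in normal air and 151 CPM after hyperoxia in Car4- capillaries, and 32.8 and 89.2 CPM in venous EC.

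Lamb1 and Lama4 had their highest mean level of the labels in lymphatic EC. The lymphatic marker sum was also higher after hyperoxia in both mice of Car4-, proliferative and Car4+ cells, while in venous EC the mice overlapped. The 5 markers summed to 827 and 733 CPM in normal air and 4024 and 3640 CPM after hyperoxia in Car4- capillaries, and to 1117 and 801, then 2906 and 2561 CPM in proliferative EC. In venous EC the sums were 1952 and 1596, then 2249 and 1763 CPM, and in Car4+ capillaries 351 and 857, then 2234 and 1726 CPM. Nearly all of the Car4- sum was Lyve1, with 4023 and 3633 CPM after hyperoxia, while Prox1, the defining lymphatic factor, had 0.0210 and 0.0411 CPM and Ccl21a 0 and 0 CPM there. The part of Lyve1 in the Lamb1 and Lama4 values was not tested.

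**Figure D5:**
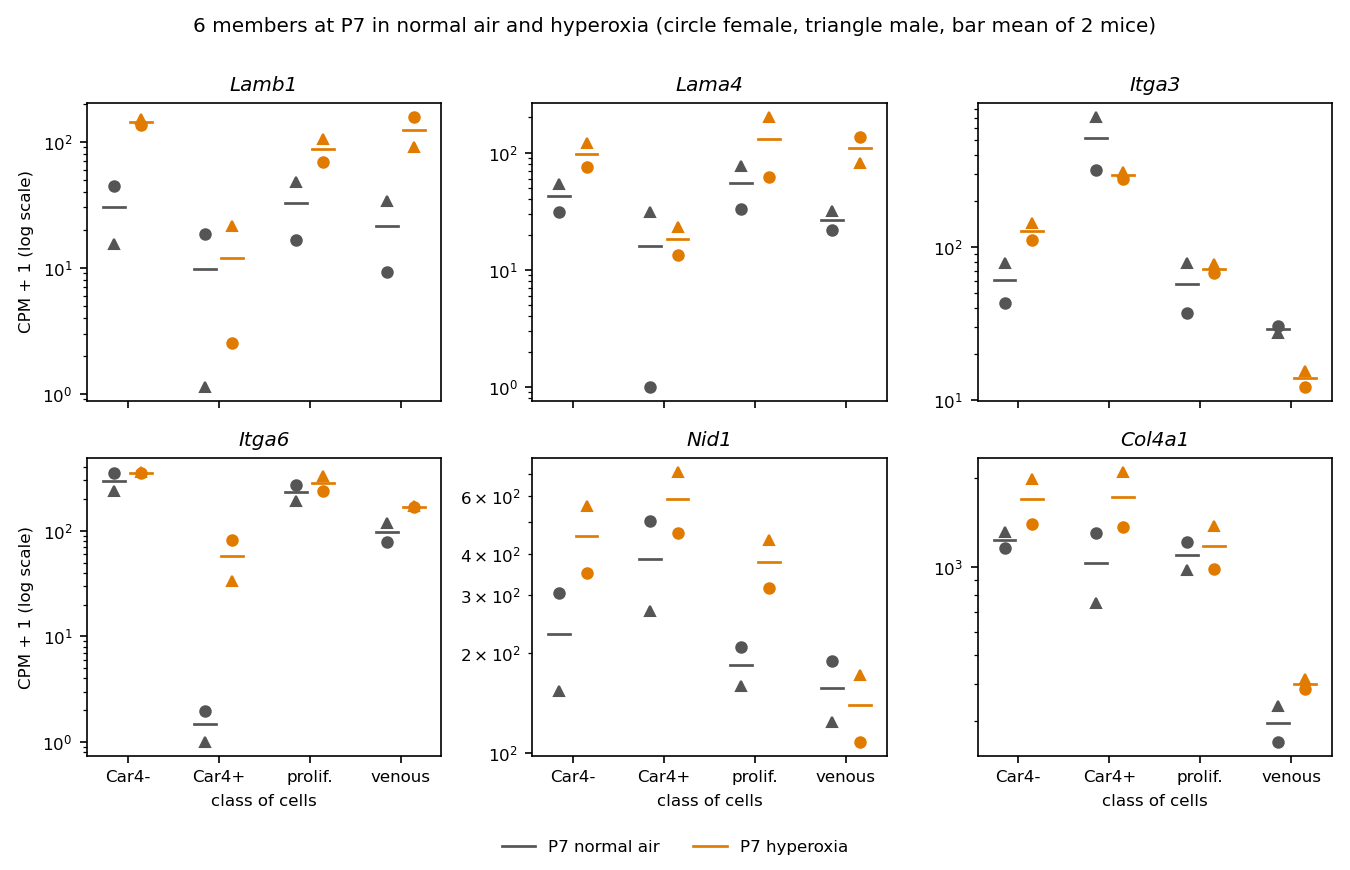
CPM plus 1 on a log axis for 6 genes at P7 in normal air (grey) and after hyperoxia (orange) in 4 classes, with circles for female and triangles for male mice and bars at the mean of 2 mice. The orange points of Lamb1 lie above the grey ones in Car4-, proliferative and venous cells, and Itga6 in Car4+ cells is near 0 in normal air.

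Lama4, which can pair with Lamb1 in 1 laminin, was also higher after hyperoxia in both mice of Car4- capillaries (30.4 and 52.9 CPM, then 74.5 and 120 CPM) and of venous EC (20.8 and 30.9 CPM, then 135 and 80.0 CPM). In the male P7 mouse 65.2% of the Lama4 reads of Car4- capillaries came from 1 cell. Itga3 had 41.7 and 77.9 CPM in normal air and 110.2 and 143 CPM after hyperoxia in Car4- capillaries, and ran the other way in venous EC. Nid1 in proliferative EC had 207 and 159 CPM and 314 and 439 CPM. Itgb1bp1, which binds the tail of Itgb1 and is no subunit, was also higher there, and Itgb3bp, Itga1 and Itgb1 were lower in both mice, Itgb1 not at 50000 reads per cell (log2 0.22).

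Of 72 members in Car4- capillaries edgeR called 0 under hyperoxia (0.0136% of all genes), and 7 had an unadjusted p under 0.05, 6 of them higher, against 5.52% of all genes. The median change was 0.47 over the members and -0.01 over all genes. DESeq2 called 1 member, Lamb1, and limma 0. A fitted change above 0 was found for 49 of 72 members and 7193 of 14660 genes. By role these were 4 of 5 collagen IV chains, 8 of 10 fibrillar, 6 of 6 fibril-associated and 5 of 5 other collagens. Col15a1 and Col18a1 gave 2 of 2, collagen VI 2 of 4, laminins 7 of 10, linkers 3 of 3 and genes that are no subunits 2 of 3. Of integrins these were 6 of 9 collagen and laminin receptor, 2 of 10 RGD and fibronectin receptor and 2 of 5 leukocyte subunits. Fibrillar collagens gave 4 of 5 in Car4+ capillaries, 1 of 6 in proliferative and 5 of 7 in venous EC. These counts take no account of level, and 52 of the 89 members stayed under 20 CPM in every label. In Car4+ capillaries 8 of 8 RGD and fibronectin receptor subunits were above 0, with 33 of 51 members and 5827 of 12284 genes, and the difference between the classes was not tested for the list. Proliferative EC gave 0 calls of 56 by edgeR (0% of all genes), 3 at an unadjusted p under 0.05 (2.59%), 2 by DESeq2 (Lamb3 and Col13a1) and 0 by limma. Venous EC gave 0 of 45 by edgeR (0%), 2 at an unadjusted p under 0.05 (2.69%), 1 by DESeq2 (Col13a1, with no read in either hyperoxia mouse) and 0 by limma.

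Itga6 in Car4+ capillaries had 0.961 CPM in the female and 0 CPM in the male in normal air, and 80.8 CPM in the female and 32.6 CPM in the male after hyperoxia. The reads after hyperoxia came from 6 of 19 and 8 of 37 cells, with 54.3% of the female's and 36.7% of the male's reads in 1 cell. The mice did not overlap and edgeR did not call it (log2 6.66 ± 2.33 SE, edgeR adjusted p = 0.731). In Car4- capillaries of the same mice Itga6 had 353 and 238 CPM and 349 and 359.6 CPM. Itga5 and Itga2 in Car4+ cells were also higher after hyperoxia in both mice, and Itga3 and Itgb1 lower, Itgb1 not at 50000 reads per cell (log2 0.048). Of the Itga3 reads of the male in normal air, 81.4% came from 1 cell. Car4+ capillaries gave 0 calls of 51 by edgeR (0% of all genes), 3 at an unadjusted p under 0.05 (6.16%), 1 by DESeq2 (Itga6) and 0 by limma.

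The test of whether hyperoxia acted differently on both capillary classes, with each mouse paired to itself, called 0 of 58 members by edgeR (0% of all genes), with 3 at an unadjusted p under 0.05 (3.31%). For Itga6 the difference was 6.48 ± 1.06 SE on the log2 scale (edgeR adjusted p = 0.626). DESeq2 called 2 members, Itga6 and Hspg2, and limma 0. For Lamb1 the difference was -1.45 ± 2.12 SE (edgeR adjusted p = 1), so a difference between the classes in Lamb1 was not shown.

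The genes that build, cut or bind this matrix, none of them members, were described from 4 lists. In embryonic EC against Car4- capillaries of P1, edgeR called Timp2, an inhibitor of matrix proteases, and Eln, the gene of elastin. Timp2 had 46.6 and 14.3 CPM at E18.5 and 169 and 149 CPM at P1 (log2 -2.49 ± 0.48 SE, edgeR adjusted p = 0.0338). Eln had 38.8 and 13 CPM, then 158 and 141 CPM (log2 -2.64 ± 0.54 SE, edgeR adjusted p = 0.0462). So Car4- capillaries of P1 held more of each gene than embryonic EC of E18.5. Label and age changed together in this comparison, so a rise with age was not shown. Whether these 2 calls hold without single mice or under other settings was not tested. The calls were 1 of 15 turnover genes and 1 of 19 other matrix and receptor genes tested. Those lists held 2 and 6 genes at an unadjusted p under 0.05. In the same comparison 0 of 18 assembly and 0 of 18 adhesion genes were called by edgeR, each list with 1 gene at an unadjusted p under 0.05, where 0.494% of all genes were called and 9.42% had such a p. Sparcl1, a secreted matrix protein, stood at 3203 and 1949 CPM in the E18.5 mice and at 686 and 640.4 CPM in the P1 mice. It was not called (edgeR adjusted p = 0.108).

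Under hyperoxia, Sdc4, a heparan sulfate co-receptor of integrins, had 33.4 and 86.5 CPM in normal air and 183 and 289 CPM in Car4- capillaries (log2 1.97 ± 0.60 SE, edgeR adjusted p = 0.887). Mmrn2, an endothelial matrix protein, had 151 and 133 CPM and 431 and 525 CPM there (edgeR adjusted p = 0.356). In venous EC it had 174 and 184 CPM and 650.5 and 566 CPM. Sparcl1 ran the other way in Car4- capillaries, with 795 and 415 CPM and 173 and 106 CPM (log2 -2.15 ± 0.42 SE, edgeR adjusted p = 0.228). Fn1, the gene of fibronectin, had 38.7 and 51.9 CPM in venous EC in normal air and 266 and 259.9 CPM after hyperoxia. No gene of the 4 lists was called by edgeR under hyperoxia in Car4- capillaries or venous EC (0.0136% and 0% of all genes). In Car4- capillaries 0 assembly, 2 turnover, 4 other matrix and 0 adhesion genes had an unadjusted p under 0.05 (5.52% of all genes). In venous EC these were 1, 2, 2 and 0 (2.69%). In Car4- capillaries of P21 against P7, Adamts1, a matrix protease, was higher (214 and 276 CPM, then 648 and 587 CPM). Emilin1, a glycoprotein of elastic fibers, was lower (104 and 111 CPM, then 45.7 and 35 CPM). Neither was called (edgeR adjusted p = 0.14 and 0.242), nor any other gene of the 4 lists, where 0.266% of all genes were. At an unadjusted p under 0.05 stood 0 assembly, 2 turnover, 4 other matrix and 3 adhesion genes (10.5% of all genes).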

How the data were processed

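Whole-number read counts per gene and cell, 18072 genes in 2931 cells, were used as the authors deposited them, with their subtype label of each cell. Per the submitters' processing notes, STAR 2.5.2b, HTSeq 0.10 and the build GRCh38 were used. That build is human while the samples are mouse, so the build of the counts is unsure, and no coordinates were taken from the counts. The libraries carry no molecular identifiers, so a count is a read and not a molecule. Cells held 42095 to 2967985 reads, with a median of 621406. How the labels were made and whether doublets were removed is not given in the sources used here, and no doublet caller was run.

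Counts were summed per mouse and class, joining the early and late Car4- labels, for classes with at least 8 cells in a mouse. Sums were compared with edgeR 4.0.16 (quasi-likelihood test, TMM scaling, filterByExpr, Benjamini-Hochberg adjustment over all genes, called at an adjusted p under 0.05), in a script tested on simulated data. Alternatives were DESeq2 1.42.0, limma 3.58.1 on log2 of the mean CPM plus 1, RLE scaling, no filter, CD31-gate cells alone, cells thinned to 50000 reads (11 cells were shallower), a replicate block and leaving out each mouse. The 13 Car4- cells of E18.5 entered no test between ages. Classes present in 1 mouse of a group were not tested.

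Per kb values use exon lengths of GENCODE M21, and promoters come from RefSeq on GRCm38.p6. The members and lists were chosen with earlier results of these data known. The rule for named genes took called members, the 3 highest per kb in each label, a list of basement membrane chains and receptors, and per comparison up to 3 in each direction by fitted change, among members whose groups did not overlap, with at least 20 CPM and reads in at least 25% of cells of the higher group. Of the other lists it took called genes and up to 2 in each direction. Other members are named for their role, after their values were seen. The values of 1 member are not reported here.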

Additional observations from a re-analysis of the deposited data

Results flagged for a closer look

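Several genes moved in opposite directions in both mice of 2 classes under the same contrast, and a difference was computed between the fitted log2 changes. Except where a test is given, the difference was not tested. Itga3 was higher after hyperoxia in Car4- capillaries (log2 1.07) and lower in Car4+ capillaries (log2 -1.14), a difference of 2.21, and the test of this difference in edgeR gave -2.03 ± 0.51 SE for Car4+ minus Car4- with an adjusted p of 1. In the male P7 mouse 81.4% of the Car4+ reads of Itga3 came from 1 cell. Against venous EC (log2 -1.11) the difference for Itga3 was 2.17.

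Itga5 was higher after hyperoxia in Car4+ capillaries (log2 0.88) and proliferative EC (0.53) and lower in venous EC (-0.82), with differences of 1.70 and 1.35. Itgb3bp, which is no integrin subunit, was lower in proliferative EC (-1.75) and higher in venous EC (1.88), a difference of -3.63. From P7 to P21, Hspg2 was lower in Car4- capillaries (-2.85) and higher in Car4+ capillaries (3.53), a difference of -6.38. Its Car4+ values were 0 and 0.517 CPM at P7 and 6.06 and 0.921 CPM at P21, so the Car4+ change concerns low levels. From E18.5 to P7, Col14a1 was lower in proliferative EC (-2.52) and higher in venous EC (1.17), a difference of -3.69, and Itgav was higher in proliferative EC (1.08) and lower in venous EC (-1.69), a difference of 2.77.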

How the results depend on the processing

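With 2 mice a group, low read numbers and calls that hang on single mice limit these results. Among the values of single genes under an alternative, 872 kept direction and side of the threshold, 24 passed it only under the alternative, 9 lost it and 8 reversed; the causes were not tested. DESeq2 called 5 members in embryonic EC against P1, 2 in Car4- P7 against P1, 9 in P21 against P7, 11 over the 3 ages and 1 in hyperoxia; in Car4+ capillaries it called 1, 2 and 1, in proliferative EC 1 over age and 2 in hyperoxia, in venous EC 5 and 1, and 2 in the interaction, where edgeR called 2, 2 and otherwise 0. limma called 1 in Car4- P21 against P7, 2 over the 3 ages (Nid2 and Itga1) and 0 in the others. Thinned cells gave 1 call in embryonic EC against P1, 1 in Car4+ P21 against P7 and 1 in the interaction, where CD31-gate cells alone also gave 1. Without a filter 1 was called in Car4+ P7 against P1, 2 in Car4+ P21 against P7, 4 in proliferative EC over age and 1 in the interaction.

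Leaving out each mouse gave 0 to 3 calls in Car4- P21 against P7, 0 to 4 over the 3 ages, 0 to 1 in both Car4+ age steps, 0 to 2 in proliferative EC over age and 0 to 5 in venous EC over age. Reversed values on the log2 scale were -0.049 for Itgav in Car4- P7 against P1 (thinned), 0.038 for Col5a2 in Car4- hyperoxia (CD31 gate), 0.025 (limma) and 0.048 (thinned) for Itgb1 in Car4+ hyperoxia, 0.22 (limma), 0.055 (CD31 gate) and 0.22 (thinned) for Itgb1 in proliferative hyperoxia, and 0.054 for Itga5 in venous hyperoxia without the P7 female, where leaving out each mouse gave -1.33 to 0.054.

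The replicate number stands for the sex of the mouse. Deviations of same-numbered sums correlated at -0.07 to 0.226, so the numbers do not pair the mice, and the fit with the replicate block called 2 members, Nid2 and Itga1, in Car4- P21 against P7 and over the 3 ages, and 0 in each other comparison it was fitted to. Over all genes, edgeR and DESeq2 called 74 and 572 in embryonic EC against P1, 0 and 398 in Car4- P7 against P1, 39 and 692 in P21 against P7, 51 and 858 over the 3 ages and 2 and 180 in hyperoxia. In Car4+ capillaries they called 0 and 259, 1 and 254, and 0 and 268, in proliferative EC 6 and 200, then 0 and 114, in venous EC 4 and 842, then 0 and 93, and in the interaction 0 and 217. limma called 57 in embryonic EC against P1, 10 in Car4- P21 against P7, 15 over the 3 ages, 3 in Car4- hyperoxia, 1 in Car4+ P21 against P7, 4 each in proliferative and venous EC over age and 0 in the others. The venous differences without the E18.5 female were added after seeing the data.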

Other observations

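The 13 Car4- cells of the female E18.5 mouse held values unlike those of any other Car4- sum. Lama4 had 1333 CPM there, with 84.2% of its reads in 1 cell, and Col4a1 had 2606 CPM against 549.5 CPM of Col4a2.

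Arterial EC of the first label had 68.9 CPM of Col18a1 in the 16 cells of the female P7 mouse, and 70.8 and 275 CPM in the 15 and 9 cells of the female and male hyperoxia mice. Col5a2 had 262 CPM and 337 and 209 CPM in the same sums. Lymphatic EC of the female hyperoxia mouse, 14 cells, had 676 CPM of Lama4, 103 CPM of Itga9 and 223 CPM of Col23a1, and no lymphatic sum of P7 in normal air reached 8 cells.

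Col3a1 in venous EC had 96.8 and 91.2 CPM in the female and male hyperoxia mice, from 4 of 23 and 3 of 30 cells, and 0.231 and 14.5 CPM in normal air. The mesenchymal markers summed to 20.4 and 27.6 CPM in those hyperoxia sums; their part in the result was not tested.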
